A study of Arabidopsis thaliana with 6 samples.

Results

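A set of 10 Arabidopsis thaliana genes of the iron deficiency response was followed in a prmt5 mutant. PRMT5, also named SKB1, encodes an enzyme that methylates arginines in proteins. The genes were chosen by locus from a fixed list: the clade Ib basic helix-loop-helix (bHLH) genes bHLH38, bHLH39, bHLH100 and bHLH101, the bHLH gene FIT, the uptake genes IRT1 and FRO2, the regulators PYE and BTS, and the ferritin gene FER1. All 10 were present in the gene table of 33602 loci, and all 10 were tested. The plants were 3 libraries of a prmt5 mutant, whose allele the labels do not name, and 3 libraries of wild type, all of the Columbia ecotype. Both genotypes were whole plants grown for 15 days on MS medium at 22 °C in continuous white light after 4 days of stratification, and no iron treatment is given in the labels. Polyadenylated RNA was sequenced. The labels do not say whether the 3 libraries of a genotype came from separate sets of plants, so the p-values measure the spread between these libraries, which may be technical.

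Plants that lack iron take it up from soil by acidifying the root surface, by reducing ferric iron with the membrane reductase FRO2 and by importing ferrous iron with the transporter IRT1. FIT is the root bHLH factor that switches these genes on, and it does so as a partner of the clade Ib bHLH factors, whose own transcripts accumulate when iron is short. PYE is a bHLH repressor, BTS is a ubiquitin ligase that marks upstream bHLH activators for destruction, and both transcripts rise in iron deficiency, whereas ferritins store iron and their transcripts accumulate when iron is plentiful. PRMT5 places symmetric dimethyl marks on arginines of histones and of spliceosome proteins, and the clade Ib genes are reported targets of its repression.

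Total gene counts were 34112844, 40150358 and 33099525 in prmt5 mutant replicates 1, 2 and 3, and 38511294, 59480457 and 29145068 in wild type replicates 1, 2 and 3. Counts over the whole PRMT5 gene were not lower in the mutant, at 56.0, 58.7 and 53.7 CPM (counts scaled to library size) in the mutant libraries and 35.5, 29.4 and 30.9 CPM in the wild type libraries. The PRMT5 intron at chr4:15132630-15132724 had 196, 301 and 206 reads in the mutant libraries and 15, 5 and 8 in the wild type libraries, which separated the genotypes. Reads spliced over that intron at the annotated sites were fewer in the mutant libraries (20, 16 and 18) than in the wild type libraries (165, 226 and 93). Wild type replicate 1 stood apart from the other wild type libraries: the chi-square per degree of freedom of its gene counts was 58.6 against wild type replicate 2 and 34.5 against replicate 3, while replicates 2 and 3 differed by 8.49. Among the mutant libraries the value was 34.0 for replicates 1 and 2, 28.3 for 1 and 3, and 18.4 for 2 and 3. Read density was also tilted differently along genes, with a median log2 ratio of density in the 3′-most over the 5′-most of 3 equal parts of 0.77, 0.84 and 1.32 in the mutant libraries and 1.68, 1.26 and 1.33 in the wild type libraries.

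The clade Ib genes were all higher in the prmt5 mutant, and they were among the most raised genes of the table. bHLH38 (AT3G56970, chromosome 3, 21084110 to 21085150, minus strand) and bHLH39 (AT3G56980, chromosome 3, 21086546 to 21087494, minus strand) are neighbours. bHLH100 (AT2G41240) lies on chromosome 2 at 17198282 to 17199320 and bHLH101 (AT5G04150) on chromosome 5 at 1138559 to 1139476, both on the minus strand. Coordinates are those of the deposited tables. The 250 bases upstream of each annotated start are printed for the 4 genes. They are also printed for BTS, the only remaining gene of the set whose window held the motif marked below. The printed windows are from RefSeq on TAIR10.1, whose starts lie upstream of the deposited gene ends. Capitals mark CACGTG, the G-box core to which bHLH proteins can bind, which reads the same on both strands.
bHLH38, chr3:21085246-21085495, minus strand: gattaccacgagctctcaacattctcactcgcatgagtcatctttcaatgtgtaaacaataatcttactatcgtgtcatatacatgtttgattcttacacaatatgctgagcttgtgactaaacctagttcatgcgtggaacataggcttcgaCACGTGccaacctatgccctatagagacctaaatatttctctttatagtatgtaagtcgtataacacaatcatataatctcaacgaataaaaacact
bHLH39, chr3:21087711-21087960, minus strand: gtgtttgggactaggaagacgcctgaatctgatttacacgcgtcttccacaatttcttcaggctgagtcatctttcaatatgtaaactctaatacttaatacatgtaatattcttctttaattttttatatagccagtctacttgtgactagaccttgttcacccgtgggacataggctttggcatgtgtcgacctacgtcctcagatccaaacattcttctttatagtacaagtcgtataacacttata
bHLH100, chr2:17199455-17199704, minus strand: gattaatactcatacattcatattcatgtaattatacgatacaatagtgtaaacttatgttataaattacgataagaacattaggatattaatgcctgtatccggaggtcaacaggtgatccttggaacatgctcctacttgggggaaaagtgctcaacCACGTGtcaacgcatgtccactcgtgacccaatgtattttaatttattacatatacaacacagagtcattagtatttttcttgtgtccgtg
bHLH101, chr5:1139634-1139883, minus strand: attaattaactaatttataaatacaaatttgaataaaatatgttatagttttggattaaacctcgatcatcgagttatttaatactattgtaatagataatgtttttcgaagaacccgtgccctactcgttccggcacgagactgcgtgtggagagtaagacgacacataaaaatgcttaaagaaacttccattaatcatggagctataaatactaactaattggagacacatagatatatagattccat
BTS, chr3:6273716-6273965, plus strand: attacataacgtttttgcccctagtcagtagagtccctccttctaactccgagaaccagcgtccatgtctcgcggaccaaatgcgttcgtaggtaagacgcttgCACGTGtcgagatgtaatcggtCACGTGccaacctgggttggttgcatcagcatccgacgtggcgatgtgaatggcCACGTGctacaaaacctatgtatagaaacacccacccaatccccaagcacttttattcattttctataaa
CACGTG stood 97 bases before the start of bHLH38, 91 before that of bHLH100, and 146, 124 and 70 before that of BTS. It was in the windows of 3 of the 10 genes and in 2 of the 4 clade Ib genes, against 1780 of 27443 protein-coding genes (6.49%). The windows of bHLH39 and bHLH101 did not hold these letters, nor did those of PYE, IRT1 and FRO2, which were also raised but are not printed.

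bHLH38 had 235, 439 and 325 CPM in the mutant libraries, against 44.8, 10.7 and 13.3 CPM in the wild type libraries. The lowest mutant library was 5.26 times the highest wild type library. The log2 change, mutant over wild type, was 3.86 ± 0.75 (SE, n = 3 each; edgeR quasi-likelihood test, adjusted p = 0.0204), which ranked bHLH38 28th from the top of 21949 genes tested. bHLH39 had 109, 226 and 163 CPM in the mutant and 32.6, 8.35 and 7.71 CPM in wild type. Its log2 change was 3.35 ± 0.78 (edgeR adjusted p = 0.0342). bHLH100 had 201, 453 and 321 CPM in the mutant and 57.0, 13.013 and 11.6 CPM in wild type. Its groups did not overlap, and its log2 change was 3.57 ± 0.87 (edgeR adjusted p = 0.0391). bHLH101, the least abundant of the 4, had 23.2, 42.8 and 37.7 CPM in the mutant and 10.3, 3.91 and 4.28 CPM in wild type, or 2.49 ± 0.48 higher on the log2 scale (edgeR adjusted p = 0.0159).

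The 4 genes shared a pattern among the libraries of each genotype. In the mutant, replicate 1 was lowest and replicate 2 highest for all 4, and in wild type replicate 1 was highest for all 4. Summed over the 4 genes, the level was 858 ± 296 CPM in the mutant (568, 1160 and 846) and 72.5 ± 62.5 CPM in wild type (145, 36.0 and 36.9; SD, n = 3 each), and the ratio of the means was 11.8. The size of the change leaned on wild type replicate 1: without it the log2 changes were 4.80 for bHLH38, 4.36 for bHLH39, 4.71 for bHLH100 and 3.09 for bHLH101. The calls leaned on single libraries too. bHLH38 missed the threshold without mutant replicate 2, wild type replicate 2 or wild type replicate 3 (edgeR adjusted p = 0.0586, 0.0509 and 0.0710). bHLH39 missed it without mutant replicate 1 or 2 or wild type replicate 2 or 3 (edgeR adjusted p = 0.0598, 0.0894, 0.1004 and 0.0984). bHLH100 missed it without any 1 library other than wild type replicate 1 (edgeR adjusted p between 0.0528 and 0.111), with no filter on low counts (0.0506) and with the tilt of reads along genes as a covariate (0.0518). bHLH101 missed it without wild type replicate 2 or 3 (edgeR adjusted p = 0.0548 and 0.0626). All 4 missed it with the replicate number as a block (edgeR adjusted p between 0.0739 and 0.106). The direction was the same in all 13 alternative settings for each of the 4.

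The proportions of the 4 transcripts were compared as shares of their summed reads per kilobase, which do not depend on library size. bHLH38 made up 36.0% ± 1.91 in the mutant and 29.2% ± 3.09 in wild type (SD, n = 3 each). bHLH101 made up 4.71% ± 0.441 in the mutant and 11.3% ± 2.75 in wild type. bHLH39 made up 19.1% ± 0.124 in the mutant and 21.7% ± 1.09 in wild type. The libraries of the 2 genotypes did not overlap for these 3 genes, and each gave the smallest p that 3 against 3 libraries allow (two-sided exact permutation p = 0.1, adjusted over 4 tests 0.133). The share of bHLH100 was 40.2% ± 1.93 in the mutant and 37.9% ± 4.14 in wild type, with overlapping libraries (exact permutation p = 0.6). Whether reads were shared between copies is not given, and the longest identical exonic run was 34 bases between bHLH38 and bHLH39, 32 between bHLH39 and bHLH100, and 24 between bHLH38 and bHLH100.

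**Figure D1:**
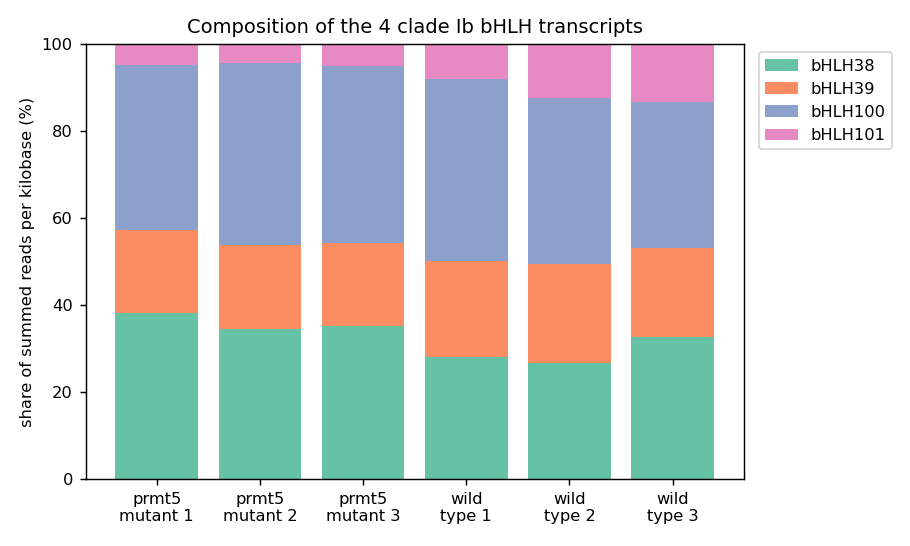
Each bar is 1 library, mutant libraries left and wild type libraries right, and its colours give the share (%) of each clade Ib gene in the summed reads per kilobase of the 4. The bHLH101 share averaged 4.71% in the mutant and 11.3% in wild type.

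FIT, the partner of the clade Ib factors, moved the other way. FIT (AT2G28160, chromosome 2, 12004708 to 12006122) had 6.78, 7.42 and 8.17 CPM in the mutant and 12.4, 10.002 and 12.8 CPM in wild type. Every mutant library lay below every wild type library, and the log2 change was -0.65 ± 0.14 (SE, n = 3 each; edgeR adjusted p = 0.00497). The FIT targets IRT1 and FRO2 were higher. IRT1 (AT4G19690, chromosome 4, 10707426 to 10709015) had 98.5, 103 and 97.4 CPM in the mutant and 66.03, 55.5 and 72.5 CPM in wild type. Its mutant libraries were close together and all above wild type, and the log2 difference was 0.63 ± 0.11 (edgeR adjusted p = 0.00129). FRO2 (AT1G01580, chromosome 1, 209395 to 213041) had 73.7, 84.8 and 73.1 CPM in the mutant and 38.1, 29.0 and 51.6 CPM in wild type, or 0.97 ± 0.19 higher on the log2 scale (edgeR adjusted p = 0.00441). These changes were smaller than those of the clade Ib genes: IRT1 ranked 2469th and FRO2 1197th from the top, and no call was lost when any 1 library was left out. With the tilt of reads along genes as a covariate, FIT (-0.46, edgeR adjusted p = 0.126) and FRO2 (0.93, edgeR adjusted p = 0.0790) missed the threshold.

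FIT, IRT1 and FRO2 are root genes and the samples were whole plants, where fewer root cells and less RNA per cell cannot be told apart. Root markers were present in every library. Of 15 root markers tested, 1 was higher (MYB36), 3 were lower (PHT1;1, NRT2.1 and SHR) and 11 were not called, with a summed level of 1101, 1031 and 1108 CPM in the mutant and 1092, 1679 and 1518 CPM in wild type. Over all genes 18.6% were called higher and 15.9% lower. Of 11 leaf markers, 7 were lower and 4 were not called, and the sum was 31279 to 36349 CPM in the mutant and 37404 to 47956 CPM in wild type. No marker of either list was at 0 in any library. The part of these differences in the changes of the iron genes was not tested.

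PYE and BTS, the regulators that damp the response, were both higher in the mutant. BTS (AT3G18290, chromosome 3, 6273995 to 6280510) had 509, 1083 and 663 CPM in the mutant, against 243, 152 and 126 CPM in wild type. The lowest mutant library was 2.09 times the highest wild type library, and the log2 change was 2.12 ± 0.37 (SE, n = 3 each; edgeR adjusted p = 0.00636), a call kept in all 13 alternative settings. PYE (AT3G47640, chromosome 3, 17567126 to 17569385) had 35.2, 58.2 and 53.4 CPM in the mutant and 29.3, 18.1 and 16.1 CPM in wild type. Mutant replicate 1 and wild type replicate 1 came close, and the log2 change was 1.21 ± 0.29 (edgeR adjusted p = 0.0206). PYE missed the threshold without wild type replicate 2 or 3 (edgeR adjusted p = 0.0929 and 0.0522) and with no filter on low counts (0.0545). With the replicate number as a block PYE was not called either (edgeR adjusted p = 0.103).

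FER1, the ferritin gene (AT5G01600, chromosome 5, 227953 to 230051, minus strand), had 68.4, 14.2 and 23.4 CPM in the mutant and 136, 170 and 186 CPM in wild type. Every mutant library lay below every wild type library, but mutant replicate 1 was 4.83 times mutant replicate 2. The log2 change was -2.22 ± 0.68 (SE, n = 3 each) and missed the threshold (edgeR adjusted p = 0.0704), although it ranked 95th from the bottom of all genes. Without mutant replicate 1 the log2 change was -3.13 and passed (edgeR adjusted p = 3.38e-05). Mutant replicate 1 was the library with the highest FER1 level and the lowest clade Ib levels among the mutant libraries. DESeq2 called FER1 with all libraries (adjusted p = 0.00722). The first exon of FER1 overlaps AT5G01595, a gene on the plus strand, and whether counting used the strand is not given. Exon bins outside that overlap summed to 4143, 646 and 1109 reads in the mutant and 9714, 18385 and 10146 in wild type. These sums exceed the counts of the whole gene (2339, 588 and 801 in the mutant, 5295, 9665 and 5225 in wild type), so reads were counted in several bins. Tested in place of the gene count, the sums changed by -2.47 on the log2 scale (edgeR adjusted p = 0.102).

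In all, 8 of the 10 genes were called higher, 1 was called lower and FER1 was not called, where 34.5% of all 21949 genes were called, 18.6% higher and 15.9% lower. The libraries of the genotypes did not overlap for any of the 10, as for 48.4% of all genes. A called rise of at least 2 on the log2 scale, as in the clade Ib genes and BTS, was found in 0.97% of genes, and a called fall of that size, which FER1 missed, in 0.542%. The median log2 change was 1.66 over the 10 genes and -0.02 over all genes tested.

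**Figure D2:**
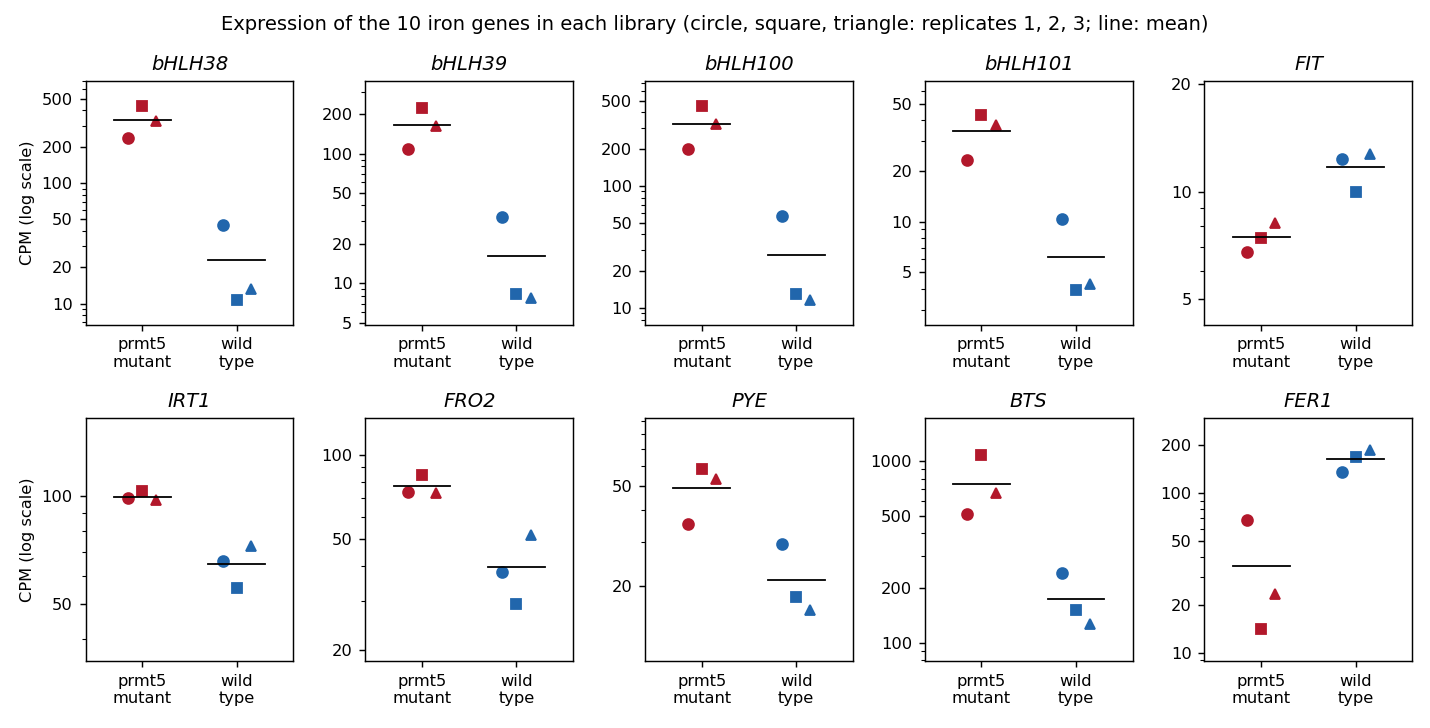
Each panel is 1 gene, with CPM on a log axis for the 3 prmt5 mutant libraries on the left and the 3 wild type libraries on the right, and a line at each mean. The clade Ib genes, PYE and BTS share a low mutant replicate 1 and a high wild type replicate 1, and FER1 is the reverse.

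Per length, the order of the 10 transcripts differed between the genotypes. In mutant plants bHLH100 (417 ± 162 CPM per kilobase of exon, or RPKM), bHLH38 (365 ± 112), bHLH39 (197 ± 69.6) and BTS (170 ± 67.3) led, and neighbours in that order overlapped among libraries. IRT1 followed at 67.3 ± 2.09 RPKM, then bHLH101 (47.8 ± 14.1), PYE (39.01 ± 9.65), FRO2 (32.0 ± 2.74) and FER1 (24.8 ± 20.4), with FIT last at 6.34 ± 0.593 RPKM (SD, n = 3). In wild type plants FER1 led at 116 ± 18.2 RPKM and did not overlap IRT1, the next, at 43.6 ± 5.79 RPKM. BTS (39.3 ± 13.9), bHLH100 (34.99 ± 33.2), bHLH38 (25.1 ± 20.8), bHLH39 (19.2 ± 16.9), PYE (16.9 ± 5.65) and FRO2 (16.4 ± 4.72) overlapped each with the next down to FRO2, which did not overlap FIT, and FIT (9.96 ± 1.27) and bHLH101 (8.53 ± 4.97) were lowest.

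The rest of the iron pathway was read from the same test with 7 lists of 56 genes, of which 50 were tested, 15 were higher, 11 were lower and 24 were not called, where 18.6% of all genes tested were higher and 15.9% lower. The short lists that follow are read against the same shares. The IRON MAN peptides, which bind BTS and shield its targets, rose together with the clade Ib genes. IMA2 had 183, 290 and 238 CPM in the mutant and 49.1, 12.4 and 13.1 CPM in wild type, or 3.25 ± 0.71 higher on the log2 scale (edgeR adjusted p = 0.0290). IMA1 changed by 2.80 ± 0.68 (edgeR adjusted p = 0.0388) and IMA3 by 2.1 ± 0.43 (edgeR adjusted p = 0.0167) on the log2 scale. The BTS-like ligase genes BTSL1 (0.14) and BTSL2 (-0.07) were not called. IMA2 missed the threshold without mutant replicate 1 or 2 or wild type replicate 2 or 3 (edgeR adjusted p between 0.0599 and 0.0827). IMA1 missed it without any 1 library other than wild type replicate 1 (0.0547 to 0.114), and IMA3 without wild type replicate 2 (0.0664). Without wild type replicate 1 the log2 changes were 4.22 for IMA2 and 3.71 for IMA1. With the tilt along genes as a covariate or with no filter on low counts IMA1 also missed the threshold (edgeR adjusted p = 0.0536 and 0.0511). With the replicate number as a block IMA1, IMA2 and IMA3 all missed it (edgeR adjusted p between 0.0537 and 0.0989). The IMA1 and IMA2 genes share an identical run of 59 bases.

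Upstream of the clade Ib genes stand the clade IVc bHLH activators, and none of them was called higher. Of the 6 upstream regulators 2 were lower, bHLH115 with a log2 value of -0.33 ± 0.09 (edgeR adjusted p = 0.0171) and bHLH11, a repressor, with -1.40 ± 0.44 (edgeR adjusted p = 0.0296), while bHLH34 (0.23), bHLH104 (-0.22), ILR3 (-0.18) and URI (-0.14) were not called. A share of 2 in 6 is near the 34.5% called among all genes. bHLH115 missed the threshold without mutant replicate 1 (edgeR adjusted p = 0.0714) or wild type replicate 3 (0.0674), and bHLH11 without mutant replicate 1 or 2 or wild type replicate 3 (0.0832, 0.109 and 0.150). With the tilt along genes as a covariate both missed it (edgeR adjusted p = 0.122 for bHLH115 and 0.275 for bHLH11). Of the clade IVa genes, whose products promote FIT turnover, 1 of 4 was tested: bHLH20 was lower, at -0.41 ± 0.15 on the log2 scale (edgeR adjusted p = 0.0489). It missed the threshold without any 1 library other than mutant replicate 1 or wild type replicate 1 (edgeR adjusted p between 0.0956 and 0.202). bHLH20 also missed it with the same covariate (0.0717), the replicate number as a block (0.0814), no filter on low counts (0.0506) or DESeq2 (0.0607).

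Among 10 genes of root acidification, coumarin release and uptake, 4 rose and 1 fell, where 18.6% of all genes rose and 15.9% fell. The rises were MYB72 (1.83 ± 0.37, edgeR adjusted p = 0.00296), a transcription factor of iron-deficient roots, IRT2 (1.18 ± 0.19, edgeR adjusted p = 0.000786), a transporter next to IRT1, and BGLU42 (0.57 ± 0.10, edgeR adjusted p = 0.00120), a glucosidase of coumarin release, and MYB10, a relative of MYB72. The metal transporter gene NRAMP1 fell by 0.36 on the log2 scale (edgeR adjusted p = 0.0220), and missed the threshold without mutant replicate 2 or 3 or wild type replicate 2 (0.0699, 0.0859 and 0.0837). The proton pump AHA2, the coumarin enzymes F6'H1, S8H and CYP82C4, and the exporter PDR9 were not called. Of the ferric reductase family, 5 of 7 genes were tested and 2 rose: FRO3, a mitochondrial reductase, by 2.1 ± 0.27 (edgeR adjusted p = 0.00132) and FRO8 by 1.30 ± 0.12 (edgeR adjusted p = 1.11e-05). FRO5 had a count of 0 in all 6 libraries.

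Of 17 chelation and transport genes, 6 rose and 2 fell, where 18.6% of all genes rose and 15.9% fell. IRT3, a zinc and iron transporter, had 7.36, 5.54 and 7.47 CPM in the mutant and 0.308, 1.04 and 1.14 CPM in wild type, or 3.03 ± 0.36 higher on the log2 scale (edgeR adjusted p = 0.000207). ZIF1, which moves nicotianamine into the vacuole, changed by 2.72 ± 0.30 (edgeR adjusted p = 0.000599), NRAMP4, which releases vacuolar iron, by 1.40 ± 0.15 (edgeR adjusted p = 7.61e-05), and YSL3, a transporter of metal chelates, by 1.05 ± 0.16 (edgeR adjusted p = 0.000766). NAS4 and OPT3 were the other called rises. YSL1 and the chloroplast permease gene PIC1 fell.

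Of the storage genes, 5 of 6 tested were lower and VTL5 was not called (-1.37, edgeR adjusted p = 0.104). FER4, a ferritin gene, had 13.3, 3.01 and 4.15 CPM in the mutant and 38.1, 45.1 and 49.9 CPM in wild type, with mutant replicate 1 the highest mutant library as for FER1. Its log2 change was -2.71 ± 0.64 (edgeR adjusted p = 0.0342). FER2 changed by -1.27 ± 0.24 (edgeR adjusted p = 0.00212), FER3 by -0.66 ± 0.10 (edgeR adjusted p = 0.000512) and VTL2, a vacuolar iron transporter homolog, by -1.01 ± 0.25 (edgeR adjusted p = 0.00960). FER4 missed the threshold without mutant replicate 3 or any 1 wild type library (edgeR adjusted p between 0.0615 and 0.108), and its log2 change was -3.64 without mutant replicate 1. With the tilt along genes as a covariate FER2 and FER4 missed the threshold (edgeR adjusted p = 0.0516 and 0.0673). With the replicate number as a block FER4 missed it as well (edgeR adjusted p = 0.0809). The median log2 change was -1.27 over the storage genes tested.

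**Figure D3:**
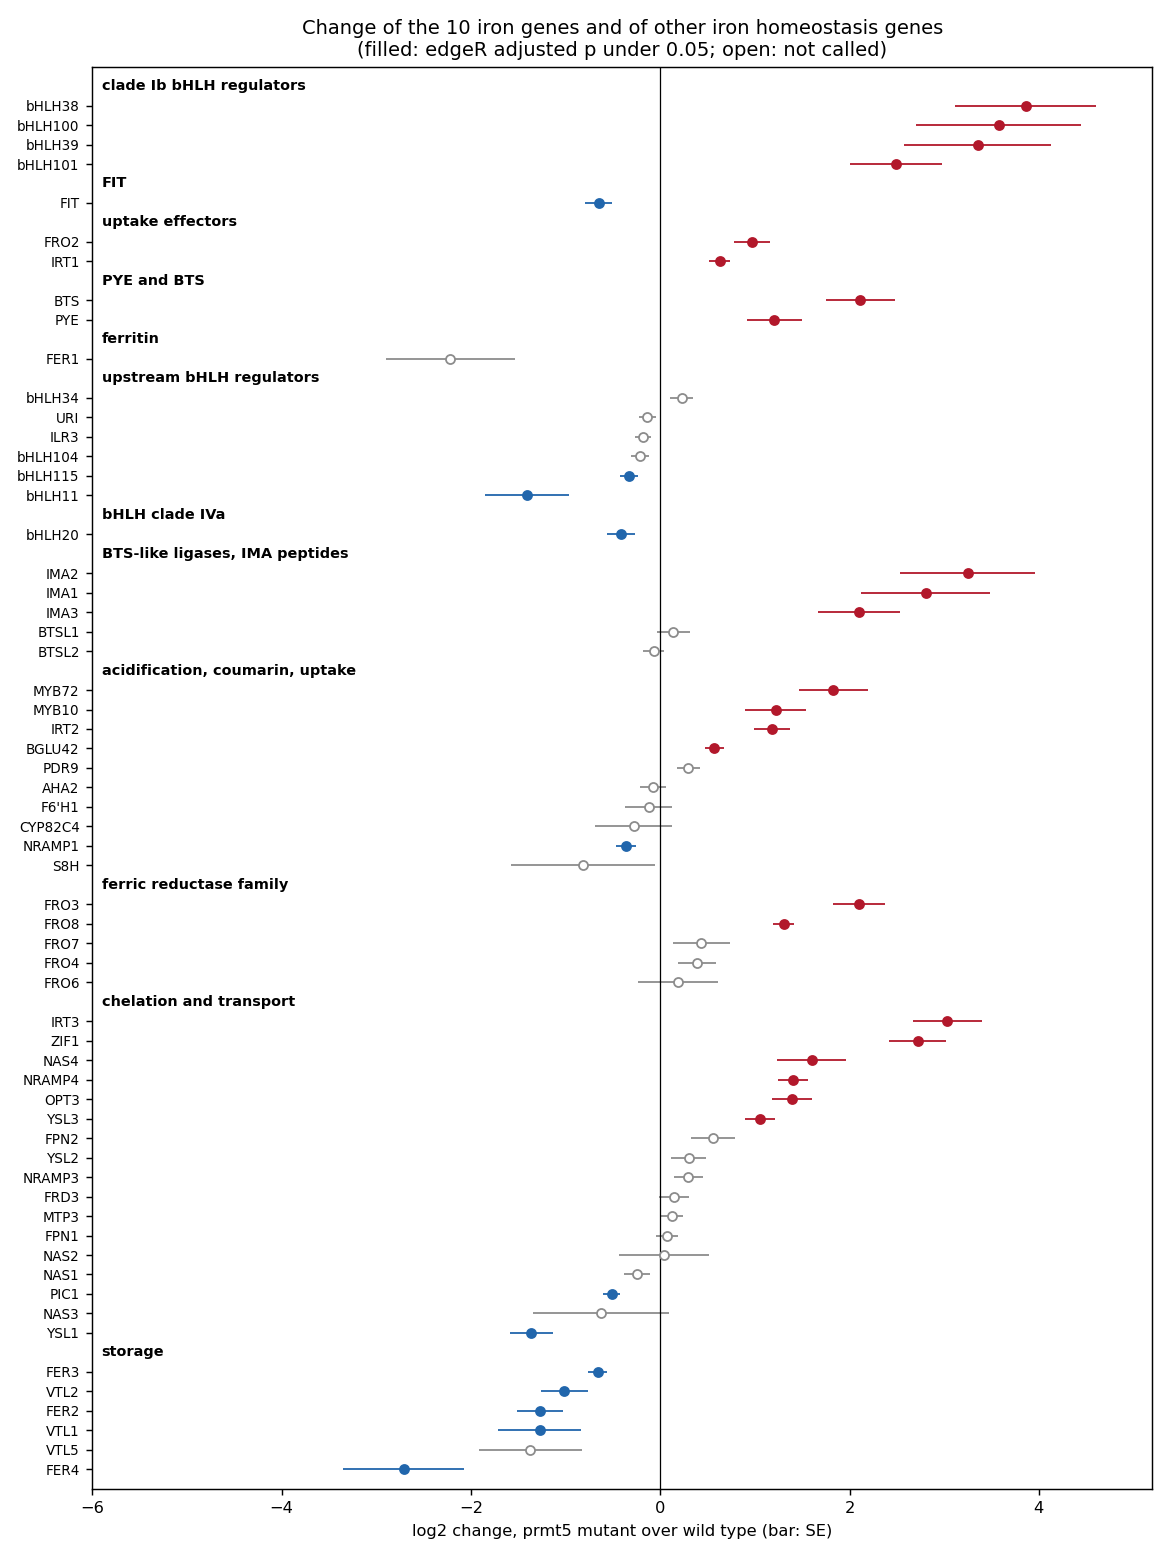
Points give the log2 change, prmt5 mutant over wild type, with its SE as a bar, for the 10 genes and the 50 tested genes of the other lists, grouped by role. Filled points passed the threshold. The IRON MAN genes lie between 2.1 and 3.25 and the storage genes between -2.71 and -0.66.

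The genes most like the clade Ib genes were sought by the root mean square difference (RMS) between each gene's deviations in log2 CPM from its own mean and the average deviations of the 4 genes, over 6 libraries and 16127 genes with a mean of at least 5 CPM. IMA2 was closest (0.105), followed by IMA1 (0.268), AT1G12030 (0.287), AT1G13608 (0.337) and AT2G14247 (0.340). AT1G12030 had 28.7, 59.3 and 40.9 CPM in the mutant and 5.62, 2.92 and 2.50 CPM in wild type. Among the 10 genes, BTS stood at an RMS of 0.817, PYE at 1.23, FRO2 at 1.46, IRT1 at 1.61, FIT at 2.19 and FER1 at 3.27. The measure includes the difference between genotypes, so it is a description of shape and size over 6 libraries.

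**Figure D4:**
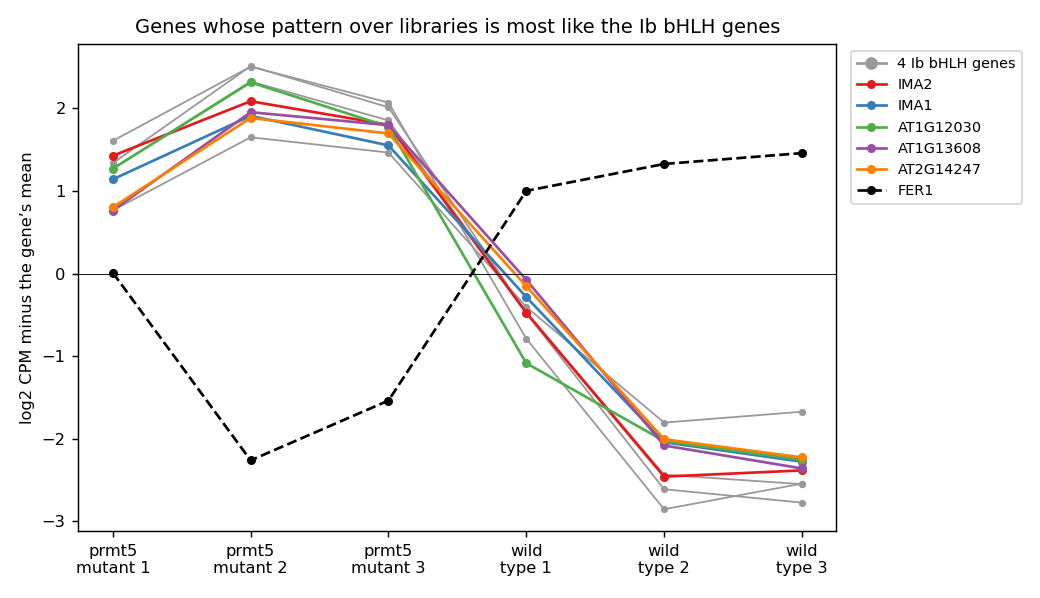
Lines give log2 CPM minus the gene's own mean in each library, mutant libraries left and wild type libraries right, for the 4 clade Ib genes (grey), the 5 genes most like them and FER1 (dashed). FER1 runs the other way and is highest of the mutant libraries in replicate 1.

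Splicing was examined next, since PRMT5 acts on spliceosome proteins. Intron reads were compared relative to the reads of their gene. Of 43 intron bins in the 10 genes 36 were tested, 12 were higher in the mutant, 1 was lower and 23 were not called, where 26.7% of 34408 introns tested were higher and 1.21% were lower. Changes were positive for 30 of the 36, but the share of positive changes over all introns was not computed.

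bHLH38 and bHLH39 each have a single intron, and these introns end in similar sequence. The donor and acceptor of each are shown with exon bases in capitals, read on the minus strand of TAIR10.1, because only that of bHLH39 was called.
bHLH38 donor: TCGgtaagatcg
bHLH38 acceptor: tttactttcttgcagAAG
bHLH39 donor: TCGgtaagaagc
bHLH39 acceptor: tttcctttcttgcagAAG
The bHLH39 intron (chr3:21087062-21087167) had 3.41, 3.84 and 3.42 reads per 100 gene reads in the mutant and 1.10, 1.69 and 0.926 in wild type. The wild type values rest on 14, 8 and 2 intron reads. The groups did not overlap, and the log2 change relative to the gene was 1.53 ± 0.31 (SE, n = 3 each; edgeR adjusted p = 0.000270). The bHLH38 intron (chr3:21084654-21084782) had 4.49, 5.12 and 5.37 reads per 100 gene reads in the mutant and 3.44, 3.12 and 4.84 in wild type, with overlap and no call (0.47 ± 0.21, edgeR adjusted p = 0.0954). In a comparison chosen after these values were seen, the bHLH39 ratio minus the bHLH38 ratio averaged -0.49 ± 0.14 in the mutant and -1.64 ± 0.75 in wild type on the log2 scale (SD, n = 3 each), a difference of 1.15 (two-sided exact permutation p = 0.1, the smallest that 3 against 3 allow).

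The bHLH100 intron (chr2:17198778-17199038) was called at 6.33 ± 0.231 reads per 100 gene reads in the mutant and 4.59 ± 0.985 in wild type (log2 change 0.51 ± 0.19, edgeR adjusted p = 0.0463). It lost the call without any 1 library other than wild type replicate 2 (edgeR adjusted p between 0.0701 and 0.348) and under DESeq2 (adjusted p = 0.0901). In all, the call was lost in 10 alternative settings and kept in 2. This intron has a pair of AG acceptors close together, shown in capitals.
bHLH100, chr2:17198769-17198798, minus strand: tttttatgtattttcttgcAGaAGaagtta
The second AG was used by 56 of 962, 71 of 2397 and 42 of 1415 spliced reads in the mutant libraries, or 5.82%, 2.96% and 2.97% (95% Wilson intervals 4.51 to 7.48, 2.35 to 3.72 and 2.20 to 3.99). In wild type it was used by 10 of 293, 2 of 96 and 0 of 45, or 3.41%, 2.08% and 0%, and the count of 0 allows a share of up to 6.67%. Intervals and limits cover counting error only and take reads as independent, which was not tested and would not hold if both mates of a pair were counted. The choice between the sites was the only one testable in the 10 genes and was not called, with a log2 change of 0.42 ± 1.41 for the second AG (edgeR adjusted p = 1.00), where 5.08% of 5020 junctions were called, 2.73% higher and 2.35% lower. With an SE of this size the test could not tell a small difference from none. The spread used in it was estimated from junction counts scaled to library size, so it includes the spread of the gene's level. bHLH101 had no intron called, and its nearest (chr5:1139083-1139182) had 3.15, 3.26 and 4.65 reads per 100 gene reads in the mutant and 1.24, 2.70 and 1.67 in wild type (1.05 ± 0.48, edgeR adjusted p = 0.103).

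FRO2 had 1 called intron (chr1:210145-210384), with 1.35, 1.51 and 0.839 reads per 100 gene reads in the mutant and 0.135, 0.121 and 0.276 in wild type. These wild type values rest on 2, 2 and 4 intron reads. The groups did not overlap and the log2 change was 2.78 ± 0.53 (edgeR adjusted p = 0.000138). BTS had 3 of its introns called. The clearest (chr3:6279779-6279880) had 1.85, 2.06 and 2.31 reads per 100 gene reads in the mutant and 0.887, 0.407 and 0.453 in wild type, or 1.77 ± 0.22 higher on the log2 scale relative to the gene (edgeR adjusted p = 2.21e-07). The BTS intron at chr3:6278472-6278822 changed by 0.75 ± 0.23 (edgeR adjusted p = 0.0137) and that at chr3:6279632-6279718 by 0.69 ± 0.25 (edgeR adjusted p = 0.0397). The first of these missed the threshold in 2 alternative settings, among them without wild type replicate 2 (0.124). The second, whose groups overlapped, missed it in 7, among them without mutant replicate 2 or 3 or wild type replicate 1 or 3 (0.117 to 0.170).

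PYE had a pair of neighbouring introns called. That at chr3:17568094-17568183 had 2.74, 1.45 and 1.69 reads per 100 gene reads in the mutant and 0.525, 0.583 and 0 in wild type (2.09 ± 0.53, edgeR adjusted p = 0.00330). That at chr3:17568288-17568395 had 2.07, 2.44 and 2.73 in the mutant and 1.05, 1.07 and 0 in wild type (1.52 ± 0.45, edgeR adjusted p = 0.00972). Wild type replicate 3, with the fewest PYE reads (452), had none in either. Relative to reads spliced over the same introns neither passed (edgeR adjusted p = 0.0553 and 0.132). The intron at chr3:17568094-17568183 lost the call in 2 alternative settings in all. IRT1 held the only intron called lower (chr4:10708320-10708417), with 0.356, 0.350 and 0.479 reads per 100 gene reads in the mutant and 0.777, 1.14 and 0.886 in wild type (-1.25 ± 0.39, edgeR adjusted p = 0.0163). It rests on 12, 15 and 16 intron reads in the mutant and 20, 36 and 18 in wild type. The call was lost in 5 alternative settings, among them without mutant replicate 1 or 2 or wild type replicate 2 (edgeR adjusted p = 0.0516, 0.0731 and 0.0958). FIT had no call, and the intron with the smallest p changed by 0.44 ± 0.55 (edgeR adjusted p = 0.613).

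In FER1, 4 introns nearest the 5′ end were called, with log2 changes relative to the gene of 1.93 ± 0.50, 1.77 ± 0.38, 2.29 ± 0.43 and 3.00 ± 0.41 (edgeR adjusted p = 0.00358, 0.000488, 0.000127 and 1.11e-06). The one nearest the start (chr5:229198-229286) had 38, 51 and 33 reads in the mutant and 31, 40 and 33 in wild type, so its raw counts overlapped while the reads of the gene were fewer in the mutant. Without mutant replicate 2 its log2 change was 2.29. Relative to library size none of the 4 was called, with log2 changes of -0.42, -0.60, -0.16 and 0.34. The intron with the change of 1.93 also lost the call in 1 other setting. These introns lie within the span of AT5G01595 on the other strand, whose exon bins outside FER1 exons had 47, 101 and 61 reads in the mutant and 99, 71 and 56 in wild type, and the part of its reads in the intron counts was not tested.

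The donors of the raised introns were read from the genome, again with exon bases in capitals, for the FRO2 and BTS introns with the clearest changes and for the FER1 intron nearest the start.
FRO2 donor: TTTgtaagcttt
BTS donor: GCTgtaagatga
FER1 donor: CAAgtaagcttc
The last exonic base at the donor was not G in 4 of the 12 raised introns and in 4 of the 23 other tested introns with annotated ends. All 3 shown are among the 4 raised introns without G, and the other 8 raised introns, that of bHLH39 among them, have G. The share over all introns was not computed.

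**Figure D5:**
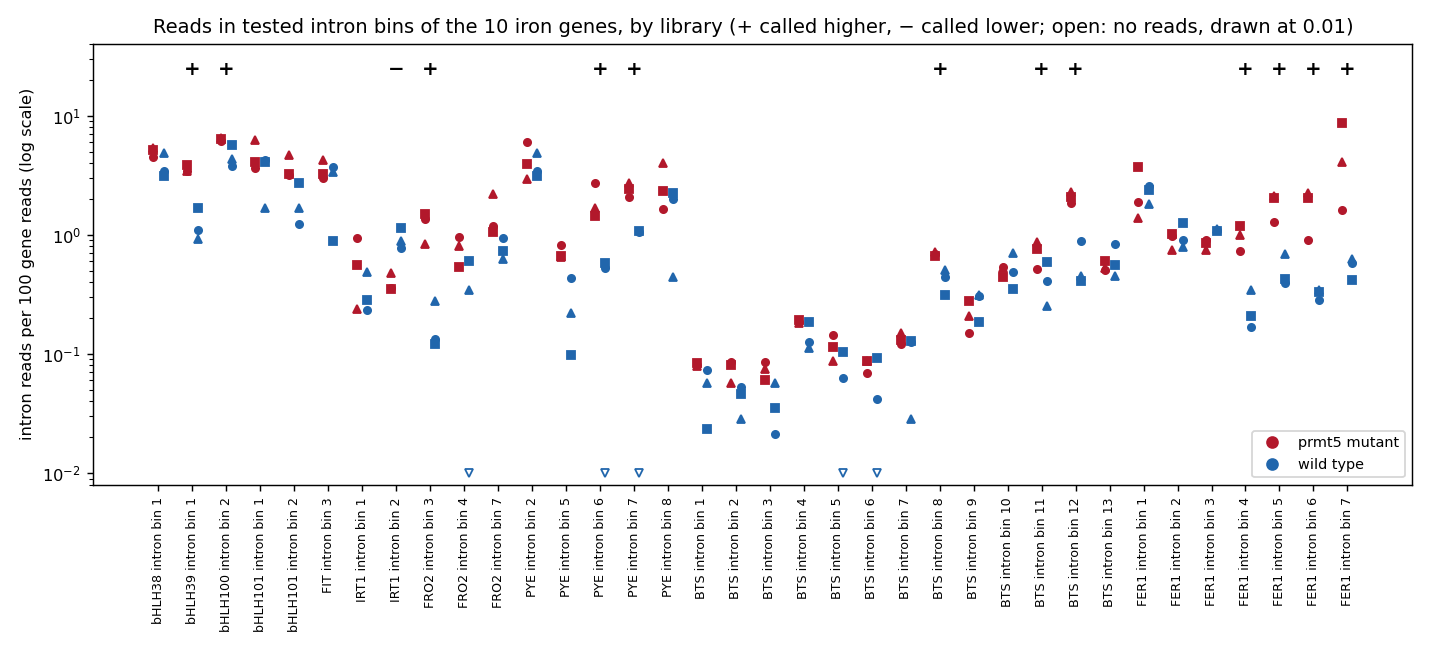
Each column is 1 tested intron bin, with reads per 100 gene reads on a log axis for each library, prmt5 mutant left of wild type; a plus or minus sign marks a call and open symbols stand for no reads. The mutant libraries lie above all wild type libraries in the called introns of bHLH39 and FRO2 and in BTS intron bin 12, while they overlap wild type in BTS intron bin 11.

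No exon bin of the 10 genes was called relative to its gene by edgeR, of 54 tested among 59, where 0.114% of 121498 exon bins were called, 0.0823% higher and 0.0313% lower. Of the 54, 23 had an unadjusted p under 0.05, DESeq2 called 5, and edgeR called 11 without mutant replicate 3. The shares of all exon bins on these measures are not given here, so these counts cannot be read as a result about the 10 genes. The tilt along members separated the genotypes in BTS, FER1 and bHLH101, while the libraries of the other members overlapped. The share of all genes whose tilt separates the genotypes was not computed. The median tilt over all genes also differed between libraries, so this separation is not shown to be particular to these genes. The log2 ratio of read density in the 3′-most over the 5′-most part of BTS was 1.62, 1.81 and 2.67 in the mutant and 3.22, 2.76 and 2.76 in wild type. That of FER1 was 2.61, 1.09 and 1.81 in the mutant and 3.10, 3.03 and 3.05 in wild type, and its 5′-most part is the exon that overlaps AT5G01595. That of PYE, which overlapped, was 1.77, 2.34 and 2.85 in the mutant and 2.89, 2.89 and 2.02 in wild type.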

How the data were processed

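Polyadenylated RNA of 6 libraries, 3 prmt5 mutant and 3 wild type, was sequenced with a TruSeq RNA kit, per the labels' protocols. The submitters' processing notes name STAR and the build TAIR10. For the counting program and its strand setting, the sources used here state nothing. Reads were deposited as raw counts for each gene, exon bin, intron bin and junction, per the file headers and the values. Nuclear coordinates matched TAIR10.1, and all 41 annotated introns of the 10 genes began with GT and ended with AG. Between 65.2% and 71.1% of gene counts of 20 or more were even. Both mates of a pair may have been counted, which was not tested, so a count may hold fewer independent fragments than reads.

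Gene counts were fitted in edgeR 4.0.16 (R 4.3.3) by its robust quasi-likelihood test after TMM scaling and the default filter, with Benjamini-Hochberg adjustment over all genes tested and a threshold of 0.05. Bins were tested with the logarithm of the gene count plus 1 as offset, where 3 or more libraries held 10 or more reads and the gene averaged 20 or more. Junctions were tested within clusters by diffSpliceDGE of edgeR. CPM follow TMM scaling, and RPKM are CPM per kilobase of the deposited effective length. Alternatives used DESeq2 1.42.0, other size factors, filters, references and designs, and left out single libraries. FER1 outside its overlap, leaving out replicate 1 of both genotypes and the comparison of the bHLH38 and bHLH39 introns were added after seeing the data. The tests were tried on simulated counts.

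The 10 genes, the other lists and the tests were chosen with earlier results of these data known. The rule for names took all 10 genes, their called bins (or the intron with the smallest p), up to 4 called genes per list by smallest p, genes at 0 throughout and the 5 genes most like the clade Ib genes. Genes named beyond it were chosen after their values were seen.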

Additional observations from a re-analysis of the deposited data

How the results depend on the processing

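The count of 9 called genes among the 10 ranged from 4 to 9 when single libraries were left out, was 7 with no filter on low counts, 6 with the coverage covariate and 10 with DESeq2, and all 10 directions were kept in all 13 settings. Same-numbered mutant and wild type libraries did not deviate together (Pearson r = -0.11, -0.05 and -0.02 across genes). With 3 libraries per genotype, each taken as a deviation from its genotype mean, these values cannot decide whether the numbers pair the samples. With the replicate number as a block, 4 of the 10 genes and 20 of the other iron genes were called, against 9 and 26 without it. The calls lost among the 10 were those of the 4 clade Ib genes (edgeR adjusted p between 0.0739 and 0.106) and PYE (0.103). IMA1, IMA2, IMA3, FER4 and bHLH20 were among the other iron genes that lost theirs. The other iron genes gave 18 to 30 calls over all settings. Called introns numbered 13, against 30 relative to library size and 8 with the coverage covariate, and 10 to 12 with single libraries left out. Called exon bins numbered 0, against 41 relative to library size, 5 with DESeq2 and 0 to 11 with single libraries left out. The shares over all introns and exon bins in these settings are not given here. Relative to library size a change of the whole gene counts as a change of its bins. Reversals were found in bins and junctions only: the FER1 introns at -0.42, -0.60 and -0.16 and the FIT intron at -0.22 relative to library size, the FIT intron at -0.0126 without wild type replicate 2 (range with single libraries left out, -0.0126 to 0.838), and the junction at the first AG of bHLH100 at 0.0046 without mutant replicate 1 and 0.0064 without wild type replicate 3 (range -0.0368 to 0.0064), each uncalled, and the cause was not tested. Leaving out replicate 1 of both genotypes gave 9 calls, with FER1 in (edgeR adjusted p = 0.000880) and FRO2 out (0.141), and the log2 changes of the clade Ib genes were between 3.31 and 5.01. The wild type intron values of bHLH39 rest on 14, 8 and 2 reads.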

Other observations

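The genes after the 5 most like the clade Ib genes, chosen after their values were seen, were AT1G13609 (RMS 0.352), AT1G62420 (0.419), ORG1 (0.505), GPT2 (0.531) and ZIF1 (0.552). ORG1 belongs to the same OBP3-responsive series of names in which bHLH38 is ORG2 and bHLH39 is ORG3. ORG1 had 802, 1601 and 1222 CPM in the mutant and 314, 150 and 130 CPM in wild type, so mutant replicate 1 was again the lowest mutant library and wild type replicate 1 the highest wild type library. AT1G62420 had 19.7, 42.3 and 25.2 CPM in the mutant and 3.62, 2.24 and 0.999 CPM in wild type.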
